A study of Mus musculus with 4 samples.

Results

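The cDC2-like dendritic cells of the atherosclerotic mouse aorta are the 276 cells of cluster 4 among 3002 myeloid cells in 14 clusters. They were chosen by the cluster number that the authors deposited for each cell, and by nothing else. All cells came from Apoe-/- mice, which lack apolipoprotein E and form atherosclerotic plaques, after 13 weeks on a western diet. Live CD45+ leukocytes of the aortas of 6 mice were sequenced with a droplet 3' method in 4 libraries, named 1-1 and 1-2 for biological replicate 1 and 2-1 and 2-2 for biological replicate 2. Every sample shared this genotype, tissue, diet and time, so no other genotype, diet or time was compared. The sources used here do not give the age, sex and background strain of the mice, their division over the replicates, or whether libraries of a replicate hold different animals. Tests between libraries therefore measure a spread that may be technical.

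Conventional dendritic cells take up antigen in tissue, load its peptides on MHC class II and present them to CD4+ T cells in draining lymph nodes. The cDC2 branch depends on the transcription factor IRF4 and carries C-type lectins and SIRPα, whereas the cDC1 branch depends on IRF8 and BATF3 and carries XCR1 and CLEC9A. Either branch can mature, and mature cells express the chemokine receptor CCR7, which guides them to lymph nodes. In the artery wall dendritic cells lie mostly in the adventitia and accumulate in plaques. The other 4 clusters described here served as background. Cluster 11 carried the cDC1 genes Xcr1 and Clec9a, cluster 12 the maturation genes Ccr7 and Fscn1, cluster 1 the macrophage genes C1qa and Trem2, and cluster 5 the monocyte genes Plac8 and Ly6c2 together with Thbs1.

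The cells of cluster 4 held 2267184 UMIs, the molecule counts of this assay. Libraries 1-1, 1-2, 2-1 and 2-2 gave 19, 126, 45 and 86 of these cells, or 8.05%, 10.2%, 8.18% and 8.73% of their myeloid cells (mean 8.80% ± 1.00, SD, n = 4 libraries). Over the 2 biological replicates the mean share was 9.21% ± 0.95 (SD, n = 2). The exact 95% binomial intervals of the library shares, which cover counting error only, ran from 4.92% to 12.3% in library 1-1 and from 8.60% to 12.1% in library 1-2, and they overlapped among all 4 libraries. Median depth was 12317 and 11603 UMIs per cell in libraries 1-1 and 2-1, and 6337 and 6803.5 in libraries 1-2 and 2-2. The first library of each replicate was thus the deeper one. Over all cells, median depth was 7192.5 UMIs in cluster 4, 5115 in cluster 1, 5859 in cluster 5, 8768 in cluster 11 and 5176.5 in cluster 12. Clusters 11 and 12 held 47 and 44 cells, the fewest of these 5 clusters. No cell barcode was shared between libraries. Apoe, the targeted gene, was at 4.47, 14, 8.98 and 9.55 CPM (a gene's UMIs scaled to a total of 1000000) in the 4 libraries of cluster 4, and with no wild-type library this does not check the genotype.

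Of the 4 genes that mark the label, Cd209a and Klrd1 set cluster 4 apart from the background clusters, whereas Flt3 and Plaur did not. Cd209a, a C-type lectin related to human DC-SIGN, was at 791, 881, 957 and 688 CPM in libraries 1-1, 1-2, 2-1 and 2-2 of cluster 4. Summed by replicate, with replicate 1 given before replicate 2 here and wherever a pair of levels follows a cluster, it was at 862 and 814 CPM in cluster 4, against 5.95 and 12.8 in cluster 1, 22.7 and 34.6 in cluster 5, 0 and 11.2 in cluster 11, then 0 in both replicates of cluster 12. All libraries of cluster 4 were far above every background value. Cluster 4 held 78.0% of the 2433 Cd209a UMIs of all 3002 cells, and the next highest level among the 14 clusters was 181 CPM in cluster 13. Klrd1, the CD94 chain of NK receptors, was at 590, 426, 469 and 473 CPM in the same order of libraries. Its replicate levels were 460 and 471 CPM in cluster 4, against 2.38 and 2.70 in cluster 1, 6.69 and 15.2 in cluster 5, 61.5 and 78.5 in cluster 11, then 276 and 173 in cluster 12. The groups did not overlap, but the mean log2 fold over cluster 12 was 1.06 and did not reach 2-fold in both replicates.

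Flt3, the receptor for the growth factor that sustains dendritic cells, was at 82.3 and 85.2 CPM in cluster 4, against 4.76 and 6.74 in cluster 1, 8.03 and 9.69 in cluster 5, 159 and 138 in cluster 11, then 192 and 133 in cluster 12. It therefore separated cluster 4 from clusters 1 and 5, and was lower in cluster 4 than in both other dendritic clusters. Plaur, the urokinase receptor, was at 205 and 232 CPM in cluster 4, against 114 and 127 in cluster 1, 449 and 489 in cluster 5, 5.12 and 33.7 in cluster 11, then 0 in cluster 12. Its highest level was in cluster 5. In mm10 coordinates of GENCODE M21 these genes lie on chromosome 8 from 3743397 to 3748984 (Cd209a), chromosome 6 from 129591782 to 129598775 (Klrd1), chromosome 5 from 147330741 to 147400489 (Flt3) and chromosome 7 from 24462484 to 24475968 (Plaur).

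**Figure D1:**
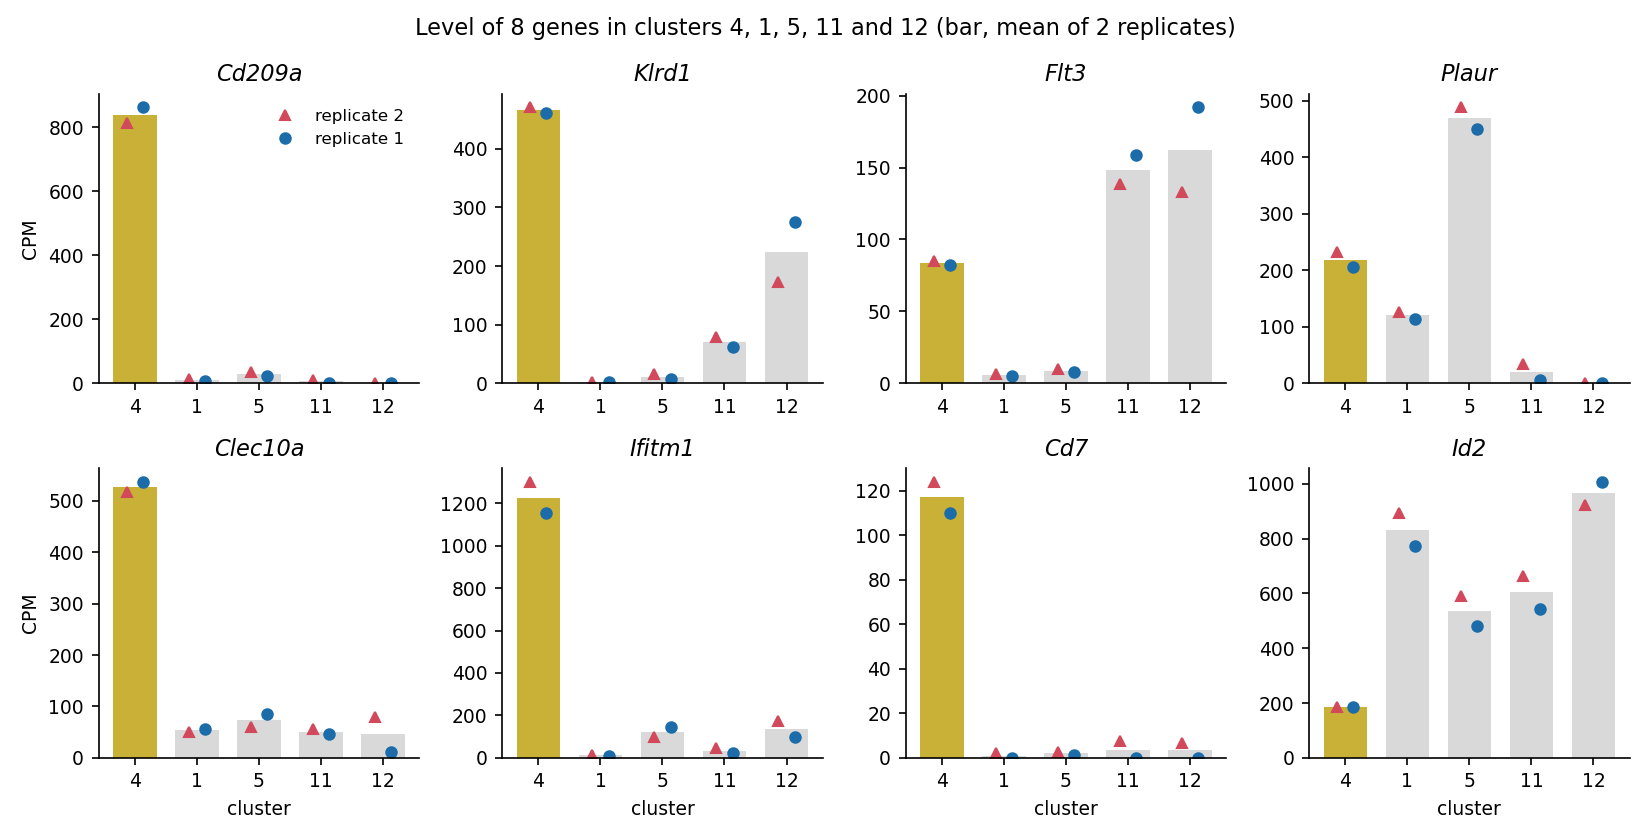
Levels (CPM, y axis) of 8 genes in cluster 4 and in clusters 1, 5, 11 and 12 (x axis); bars are means of 2 biological replicates, triangles replicate 2 and circles replicate 1. Cd209a, Clec10a, Ifitm1 and Cd7 stand highest and Id2 lowest in cluster 4, whereas Flt3 is higher in clusters 11 and 12 and Plaur is higher in cluster 5.

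At least 1 UMI of Cd209a was found in 73.6% of the cells of cluster 4, and Klrd1 in 72.5%, at a median of 7192.5 UMIs per cell. After thinning every cell to 2000 UMIs, which 270 of the 276 cells allow, the shares were 56.3% (exact 95% interval 50.2 to 62.3) for Cd209a and 50.4% (44.2 to 56.5) for Klrd1. In the thinned cells of cluster 1, taken as the background of free RNA, the shares were 0.960% and 0.192%. Flt3 was found in 14.1% of thinned cells of cluster 4, against 28.3% in cluster 11 and 30.6% in cluster 12. Of the 276 cells, 269 had a UMI of at least 1 of the 4 genes.

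Markers of T, NK, mast and B cells and of neutrophils were low or absent, whereas macrophage and monocyte genes were present. No UMI of the T and NK cell genes Cd3e, Cd3d, Cd3g, Nkg7, Gzma, Ncr1, Klrb1c and Il2rb, or of the mast cell genes Cpa3, Ms4a2 and Gata2, was found in cluster 4, where 0 counts allow up to 1.32 CPM. Klrd1 thus stood without the other NK cell genes listed. The neutrophil genes S100a8, S100a9, Retnlg and Cxcr2 were likewise at 0, Csf3r and Mmp9 had 39 and 13 UMIs, and the B cell genes Cd79a, Cd79b and Ms4a1 had 6, 15 and 2 UMIs. Siglech and Ccr9, genes of plasmacytoid dendritic cells, were at 170 and 58.1 CPM in library 1-1, against 35.0 and 10.5 CPM in library 1-2, 21.6 and 3.59 in library 2-1, and 15.9 and 3.18 in library 2-2. Library 1-1, with 19 cells, was the highest for both. Siglech was found in 22 of the 276 cells of cluster 4. The summed plasmacytoid genes took up to 1.36% of a cell's UMIs, against a 90th percentile of 0.116% over cells, so few cells were rich in them. The summed level of the 12 macrophage genes was 6484 and 6336 CPM in the replicates of cluster 4, against 30232 and 28704 in cluster 1, 20799 and 19928 in cluster 5, 5399 and 8365 in cluster 11, then 1955 and 2605 in cluster 12. Macrophage RNA was therefore present in cluster 4, at about the level of cluster 11, and its distribution over cells is given further on. The summed monocyte genes were at 1205 and 1587 CPM in cluster 4. Background clusters 1, 5, 11 and 12 had 674 and 533, 3806 and 2985, 1568 and 1282.5, then 24.0 and 59.8 CPM.

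Clusters were compared by size alone, with no test, because the same counts had defined them. A gene was called when it differed at least 2-fold in the same direction in both replicates on the scale log2(CPM + 10), with a mean of at least 50 CPM on the higher side. In all, 10 genes were called higher in cluster 4 than in each of clusters 1, 5, 11 and 12 (0.271% of 3695 genes): Cd209a, Cd7, Clec10a, Ctnnd2, Cyp4f16, Ddr1, Ffar2, Ifitm1, Il1r2 and Napsa. Of these, 5 genes, Cd209a, Cd7, Clec10a, Ifitm1 and Il1r2, were called under all 14 ways of counting that were run, which include leaving out each library in turn. The 14 also include the main count itself, and a pseudocount of 1 CPM and lower minimum levels, which can lose no call. They include, too, the removal of cells rich in C1q described further on, a choice made after seeing the data. Clec10a encodes a galactose-binding lectin of dendritic cells and macrophages. It was at 537 and 517 CPM in cluster 4, against 56.5 and 51.2 in cluster 1, 85.6 and 60.9 in cluster 5, 46.1 and 56.1 in cluster 11, then 12 and 79.7 in cluster 12. Outside these clusters its highest level was 319 CPM in cluster 0, and its near relative Mgl2 was higher in cluster 0 (977 CPM) than in cluster 4 (604 CPM). Reads of near-identical lectin genes could have been divided between them, or dropped, in the authors' counting.

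Ifitm1 encodes an interferon-induced membrane protein. It was at 1265, 1123, 1584 and 1049 CPM in libraries 1-1, 1-2, 2-1 and 2-2 of cluster 4, against replicate levels of 10.7 and 12.1 in cluster 1, 146 and 98.3 in cluster 5, 20.5 and 48.6 in cluster 11, then 95.9 and 173 in cluster 12. Cluster 4 held 78.8% of all 3536 Ifitm1 UMIs. Cd7, an immunoglobulin-family surface protein best known from T and NK cells, was at 183, 90.9, 129 and 119 CPM in the same order of libraries, and no background replicate exceeded 7.48 CPM. Il1r2, the decoy receptor that binds interleukin-1, was at 442 and 471 CPM in the replicates of cluster 4, against 15.5 and 6.74 in cluster 1, 123 and 129 in cluster 5, 10.2 and 22.4 in cluster 11, then 24.0 and 26.6 in cluster 12. Among all 14 clusters it ranked 2, below cluster 7 at 1196 CPM.

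The other called genes were lower in level or nearer to the threshold. Napsa, an aspartic protease, was at 899 and 850 CPM in cluster 4, against 441 and 366 in cluster 11, its nearest background cluster. Without library 1-1 or library 1-2 its log2 fold over cluster 11 was 1.08 or 1.04 and no longer passed in both replicates. Ffar2, a receptor for short-chain fatty acids, was at 53.7, 58.3, 44.9 and 46.2 CPM in libraries 1-1, 1-2, 2-1 and 2-2 and had no UMI in clusters 1, 11 and 12. Set against 3 counts summed over the group, the floor used for a group at 0, it was at least 54.0-fold higher than in cluster 1, at least 7.89-fold higher than in cluster 11 and at least 3.99-fold higher than in cluster 12. Ddr1, a collagen receptor kinase, was at 121 CPM in library 1-1, against 47.8, 44.9 and 43.0 CPM in libraries 1-2, 2-1 and 2-2. Without library 1-1 the means of Ddr1 and Ctnnd2 fell below 50 CPM, and without library 1-2 that of Ffar2 did, so that these calls were lost. Without library 2-2 the log2 folds of Ctnnd2 and Cyp4f16 over cluster 11 were 1.16 and 1.52 and did not pass in both replicates. Cyp4f16, a cytochrome P450, was at 80.4 and 56.5 CPM in the replicates of cluster 4, against 23.2 and 18.9 in cluster 1, where its fold of 1.10 without library 1-2 missed the rule.

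Id2 was the single gene called lower in cluster 4 than in all 4 background clusters (0.0271% of 3695 genes). It encodes an inhibitor of helix-loop-helix transcription factors, and cDC1 need it to develop. It was at 84.9, 210, 219 and 159 CPM in libraries 1-1, 1-2, 2-1 and 2-2 of cluster 4, against replicate levels of 772 and 894 in cluster 1, 480 and 591 in cluster 5, 543 and 666 in cluster 11, then 1007 and 924 in cluster 12. All 4 libraries were below every background replicate. Without library 1-1 its log2 fold over cluster 5 was -1.29, and without library 1-2 its fold over cluster 11 was -1.06, and neither then passed in both replicates.

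Against the cDC1-marked cluster 11, 163 genes were called higher in cluster 4 (5.47% of 2978) and 99 lower (3.32%). All 8 cDC1 genes were among the lower ones. Irf8, the transcription factor of cDC1, was at 204 and 101 CPM in cluster 4, against 1619 and 1780 in cluster 11. Wdfy4, needed for cross-presentation, was at 81.3 and 61.6 CPM in cluster 4, against 466 and 411 in cluster 11. Xcr1 and Clec9a had 5 and 18 UMIs in all of cluster 4. Naaa, a lipid amidase, was at 150 and 97.0 CPM in cluster 4, against 1419 and 1081 in cluster 11. The highest folds over cluster 11 were those of Cd209a, S100a4, Ifitm1, Fabp5 and Il1r2. Of these, Fabp5 was found in 102 cells of cluster 4, and 14 of them held 72.3% of its UMIs. S100a4, a calcium-binding protein of motile cells, was at 996 and 974 CPM in cluster 4, against 10.2 and 18.7 in cluster 11 and 1667 and 1595 in cluster 12. It was thus low in the cDC1-marked cells alone among these 3 clusters. Sirpa and Itgam, surface proteins by which cDC2 are sorted, were at 191 and 148 CPM and at 136 and 104 CPM in cluster 4, against 76.8 and 56.1 and against 20.5 and 29.9 CPM in cluster 11. Without library 2-2 the folds of Sirpa and Itgam over cluster 11 were 0.98 and 1.51 and missed the rule. Sirpa was at 356 and 316 CPM in cluster 1 and Itgam at 225 and 204, which is within 2-fold of cluster 4.

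Against the Ccr7-marked cluster 12, 428 genes were called higher in cluster 4 (13.8% of 3096) and 318 lower (10.3%). All 9 maturation genes were lower in cluster 4. Ccr7 was at 274 and 219 CPM in cluster 4, against 5253 and 5183 in cluster 12. It was nonetheless above the other background clusters, which were at 5.95 and 1.35 (cluster 1), 18.7 and 70.6 (cluster 5) and 25.6 and 0 CPM (cluster 11), although without library 2-2 its log2 fold over cluster 5 was 1.79 and missed the rule. Fscn1, an actin-bundling protein of dendrites, and Tnfrsf4, the OX40 receptor, had 8 and 0 UMIs in cluster 4, whereas Tnfrsf4 was at 252 and 233 CPM in cluster 12. Ccl22, a chemokine that attracts regulatory T cells, was at 51.8 and 21.9 CPM in cluster 4, against 552 and 771 in cluster 12. Genes higher in cluster 4 and low in cluster 12 included Plac8, Plbd1, Tgfbi and Cfp. Cfp, the complement regulator properdin, was at 436 and 426 CPM in cluster 4, against 12 and 19.9 in cluster 12. Plac8 was at 542.5 and 970 CPM in cluster 4 and had no UMI in cluster 12, a difference of at least 59.7-fold against the same floor.

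Against cluster 1, 131 genes were called higher in cluster 4 (4.49% of 2916) and 185 lower (6.34%). Among the 12 macrophage genes 8 were lower and none was higher. C1qa, a chain of the complement component C1q, was at 1051 and 1124 CPM in cluster 4, against 6163 and 6009 in cluster 1. Trem2, a lipid receptor of foamy macrophages, was at 75.8 and 46.4 CPM in cluster 4, against 624 and 716 in cluster 1, and Spp1, osteopontin, was at 81.3 and 34.6 CPM, against 1120 and 765. Against cluster 5, 84 genes were called higher in cluster 4 (2.85% of 2943) and 171 lower (5.81%). Thbs1, thrombospondin 1, had the largest mean fold among the lower genes, with 61.0 and 59.1 CPM in cluster 4, against 2455 and 1677 in cluster 5. Clec4e, a sensor of mycobacterial and dead-cell lipids, was at 39.7 and 37.1 CPM in cluster 4, against 753 and 603 in cluster 5. Ly6c2, which marks classical monocytes, was at 42.5 and 35.4 CPM in cluster 4, against 399 and 318 in cluster 5.

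Genes of antigen presentation were high in cluster 4, and the non-classical loading genes separated it best from clusters 1 and 5. The 14 MHC class II and loading genes summed to 69744 and 67441 CPM in the replicates of cluster 4, against 51462 and 47611 in cluster 1, 34034 and 28109 in cluster 5, 54040 and 46523 in cluster 11, then 40800 and 51715 in cluster 12. The 4 libraries of cluster 4 lay between 66183 and 69788 CPM, and no background replicate reached them, although library 1-1 of cluster 11, with 3 cells, had 75773 CPM. The members of this list that reached 50 CPM and could be called numbered 13, 13, 13 and 14 against clusters 1, 5, 11 and 12. Medians cover all 14 genes. In the comparison with cluster 5, 9 were called higher and none lower, with a median log2 fold of 1.23, against 0 over the 14312 genes with a UMI. Of the same genes 4 were higher and 1 lower than in cluster 1 (median 0.79, against 0), 3 higher than in cluster 11 (0.39, against 0), and 4 higher and 1 lower than in cluster 12 (0.70, against 0.09). Over all genes, 4.49%, 2.85%, 5.47% and 13.8% were called higher than in clusters 1, 5, 11 and 12. In the same order 6.34%, 5.81%, 3.32% and 10.3% were called lower. The invariant chain Cd74 was at 24280 and 23230 CPM in cluster 4, against 19316 and 18204 in cluster 1, so this difference was under 2-fold. H2-DMb2, a chain of the peptide exchanger H2-DM, was at 151 and 132 CPM in cluster 4, against 2.38 and 3.37 in cluster 1, 6.69 and 13.8 in cluster 5, 35.9 and 44.9 in cluster 11, then 120 and 166 in cluster 12. H2-Oa, a chain of the H2-DM inhibitor H2-O, was at 155 and 178 CPM in cluster 4, against 2.98 and 2.70 in cluster 1, 8.03 and 16.6 in cluster 5, 92.2 and 59.8 in cluster 11, then 36.0 and 46.5 in cluster 12. Both genes were low in clusters 1 and 5. H2-Ob, the partner chain of H2-Oa, was at 75.8 and 73.4 CPM in cluster 4, against 138 and 105 in cluster 11. Lgmn, a protease that degrades antigen and the invariant chain, was at 481 and 343 CPM in cluster 4, against 1166 and 1133 in cluster 1, and was the 1 gene called lower there. Ctss, a protease of the same pathway, was at 1711 and 1579 CPM in cluster 4, against 2900 and 2554 in cluster 1, which is under 2-fold. H2-Eb2 was at 19.4 and 10.1 CPM in cluster 4, against 168 and 266 in cluster 12. Without library 1-2 the folds of H2-Aa, H2-Ab1, H2-Eb1 and Cd74 over cluster 5 were 1.08, 1.11, 1.25 and 1.06 and no longer passed in both replicates.

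**Figure D2:**
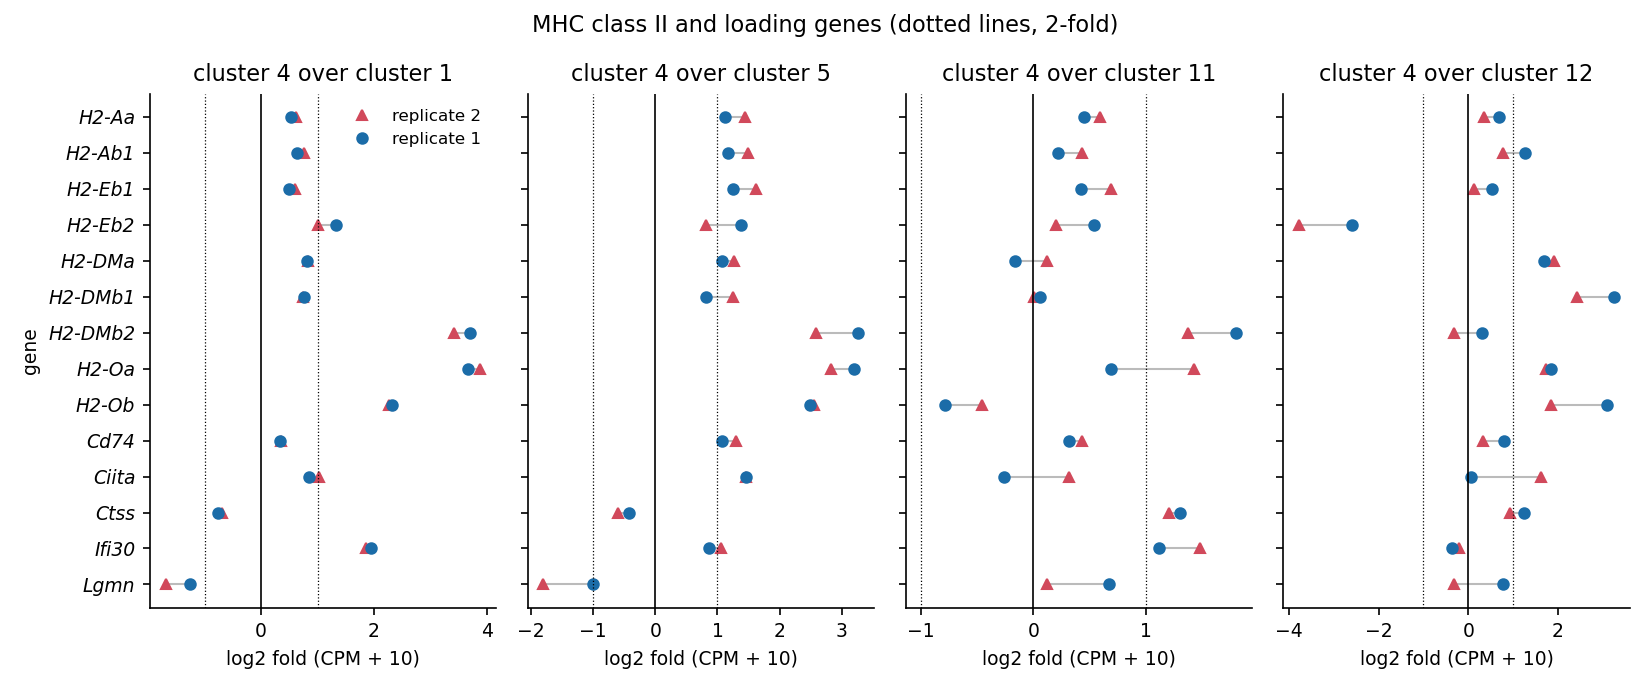
Log2 folds (x axis, on CPM + 10) of 14 MHC class II and loading genes (y axis) in cluster 4 over clusters 1, 5, 11 and 12; triangles are replicate 2, circles replicate 1, and dotted lines mark 2-fold. H2-DMb2, H2-Oa and H2-Ob lie farthest to the right over clusters 1 and 5, with mean folds from 2.29 to 3.78, and Lgmn lies to the left in both.

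Among 15 measured C-type lectins and surface proteins of cDC2, 6 were called higher and 1 lower than in cluster 1, 6 higher than in cluster 5, 7 higher and 1 lower than in cluster 11, and 12 higher than in cluster 12. The members that reached 50 CPM and could be called numbered 13, 13, 14 and 13 in these comparisons. Over all genes the shares called higher were 4.49%, 2.85%, 5.47% and 13.8% in that order of clusters. The shares called lower were 6.34%, 5.81%, 3.32% and 10.3%. The median log2 fold of the 15 was -0.05 over cluster 1 and 0.25 over cluster 5, against 0 in both over the 14312 genes with a UMI. The median was thus near that of all genes over cluster 1. It was 1.64 over cluster 11 and 2.69 over cluster 12, against 0 and 0.09. Clec4b1 was at 157 and 74.3 CPM in cluster 4, against 123 and 112 in cluster 1, 34.8 and 24.9 in cluster 5, then 12 and 0 in cluster 12. Esam, which marks the NOTCH2-dependent cDC2 of mouse spleen, had no UMI in cluster 4. Cd24a, higher on cDC1, was at 46.2 and 30.4 CPM in cluster 4, against 338 and 396 in cluster 11. Of the 8 lectin-like genes of the NK complex, Klrd1, Klrk1 and Klrb1b were the ones with at least 50 CPM. Klrk1, the activating receptor NKG2D, was at 99.8 and 106 CPM in cluster 4, against 0 and 2.02 in cluster 1, 10.7 and 22.1 in cluster 5, 108 and 112 in cluster 11, then 60 and 146 in cluster 12. It was shared by the dendritic clusters. Klrb1b was at 152 and 129 CPM in cluster 4, against 10.1 and 14.8 in cluster 1, 108 and 89.7 in cluster 11, then 12 and 0 in cluster 12. The NKG2 genes Klrc1 and Klrc2, whose products pair with the Klrd1 product in NK cells, had 1 and 3 UMIs in cluster 4.

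Of 18 transcription factors of dendritic cells, 15 reached 50 CPM in cluster 4 or cluster 1. Of these, 1 was higher and 2 lower in cluster 4 (4.49% and 6.34% over all genes). Against cluster 5, 1 was higher and 3 lower of 15 (2.85% and 5.81%). Against cluster 11, none was higher and 3 lower of 16 (5.47% and 3.32%). Against cluster 12, 5 were higher and 4 lower of 16 (13.8% and 10.3%). The median log2 fold of the 18 was 0.05, 0.05, 0.30 and 0.76 over clusters 1, 5, 11 and 12. Over the 14312 genes with a UMI it was 0, 0, 0 and 0.09. Irf4 was at 49.2, 30.3, 34.1 and 44.6 CPM in libraries 1-1, 1-2, 2-1 and 2-2, against replicate levels of 5.95 and 9.44 in cluster 1, 13.4 and 6.92 in cluster 5, 0 and 7.48 in cluster 11, then 24.0 and 6.64 in cluster 12. It was highest in cluster 4 in both replicates, but it was not called: its mean of 36.9 CPM was under the minimum, and its log2 folds in replicate 1 were 0.92 over cluster 5 and 0.38 over cluster 12. Zbtb46, a factor of conventional dendritic cells, was at 27.7 and 26.2 CPM in cluster 4, against 0.595 and 1.35 in cluster 1 and 84.0 and 53.2 in cluster 12. Bcl11a was at 74.9 and 62.4 CPM in cluster 4, against 2.98 and 2.02 in cluster 1, and library 1-1 (179 CPM) was above the other libraries (44.9 to 78.0 CPM). Cebpb, a factor of monocytes and macrophages, was at 309 and 299 CPM in cluster 4, against 990 and 1214 in cluster 1 and 1582 and 2173 in cluster 5.

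Of 13 costimulatory and checkpoint ligands, 1 was called higher than in cluster 1, 1 higher than in cluster 5, 3 higher and 1 lower than in cluster 11, and 2 higher and 3 lower than in cluster 12. The members that reached 50 CPM and could be called numbered 6, 7, 7 and 10 in these comparisons. Over all genes 4.49%, 2.85%, 5.47% and 13.8% were called higher, and 6.34%, 5.81%, 3.32% and 10.3% were called lower. The median log2 fold of the list was 0.53, 0.43, 0.89 and -1.05 over clusters 1, 5, 11 and 12. Cd80 was at 61.0 and 46.4 CPM in cluster 4, against 8.33 and 4.72 in cluster 1, 53.5 and 24.9 in cluster 5, 5.12 and 7.48 in cluster 11, then 84.0 and 106 in cluster 12. Tnfsf9, the 4-1BB ligand, was at 414 and 345 CPM in cluster 4, against 256 and 261 in cluster 1, 118 and 123 in cluster 5, 61.5 and 71.0 in cluster 11, then 60 and 106 in cluster 12. It was highest in cluster 4 in both replicates, although its call over cluster 5 was lost without library 2-2 (log2 fold 1.32). Cd274, which encodes PD-L1, was at 49.0 and 46.4 CPM in cluster 4, against 324 and 505 in cluster 12. Cd86 was at 398 and 489 CPM in cluster 4 and within 2-fold of every background cluster.

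Il1b, the gene of interleukin-1 beta, was abundant. It was at 4252, 6014, 4326 and 6330 CPM in libraries 1-1, 1-2, 2-1 and 2-2 of cluster 4, against replicate levels of 3417 and 2857 in cluster 1, 6940 and 5485 in cluster 5, 2274 and 2430 in cluster 11, then 1163 and 1601 in cluster 12. The second library of each replicate was the higher one, and cluster 4 overlapped with cluster 5. Il1rn, the receptor antagonist that opposes interleukin-1, was at 57.3 and 72.6 CPM in cluster 4, against 262 and 196 in cluster 1 and 651 and 401 in cluster 5, and without library 2-2 its log2 fold of -1.39 over cluster 1 missed the rule. Cluster 4 thus had Il1b at the level of the monocyte-marked cluster with less Il1rn and more Il1r2. Tnf was at 78.6 and 88.6 CPM in cluster 4, against 282 and 388 in cluster 1 and 282 and 339 in cluster 5. Without library 1-1 the fold of Tnf over cluster 5 was -1.41 and missed the rule. The genes Il12b, Il12a and Il23a, subunits of cytokines that direct T cells, had 1, 4 and 8 UMIs in cluster 4.

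Of 12 chemokines, 1 was called higher and 2 lower than in cluster 1, 2 higher and 4 lower than in cluster 5, 3 higher and none lower than in cluster 11, and 4 higher and 3 lower than in cluster 12. The chemokines that reached 50 CPM and could be called numbered 10, 10, 10 and 11 in these comparisons. Over all genes 4.49% were called higher and 6.34% lower than in cluster 1, and 2.85% higher and 5.81% lower than in cluster 5. They were 5.47% higher and 3.32% lower for cluster 11, and 13.8% higher and 10.3% lower for cluster 12. The median log2 fold of the list was -0.73, -0.47, 0.62 and 0.52 over clusters 1, 5, 11 and 12. Cxcl2, which attracts neutrophils, was at 1825 and 1392 CPM in cluster 4, against 7503 and 8056 in cluster 1 and 6001 and 7258 in cluster 5. Ccl17, which attracts CCR4-bearing T cells, was at 84.1 and 81.0 CPM in cluster 4, against 0 and 0.674 in cluster 1, 9.36 and 8.30 in cluster 5, 10.2 and 3.74 in cluster 11, then 240 and 66.4 in cluster 12. Its level was 13.4, 103, 119 and 47.7 CPM in libraries 1-1, 1-2, 2-1 and 2-2. It was found in 16 of the 276 cells, of which 1 held 33.7% of its UMIs and 14 held 98.9%, so these levels rest on few cells. Among receptors, Ccr1 was at 131 and 131 CPM in cluster 4, against 50 and 33.0 in cluster 1, 290 and 180 in cluster 5, then 0 and 29.9 in cluster 11, and Ccr2 was at 457 and 388 CPM, against 425 and 403 in cluster 1. Cx3cr1, the fractalkine receptor of resident macrophages, was at 76.7 and 48.9 CPM in cluster 4, against 271 and 301 in cluster 1. Of 16 innate sensors 4 reached 50 CPM in the comparison with cluster 1, and all 4 were lower there (6.34% over all genes). In the comparison with cluster 5, 3 reached it and 2 were lower. Over cluster 11, 1 was higher and 1 lower of 4, and over cluster 12 all 3 that reached it were higher. Over all genes 5.81% were lower than in cluster 5. The shares were 5.47% higher and 3.32% lower over cluster 11, and 13.8% higher over cluster 12. Cd14, the lipopolysaccharide co-receptor, was at 750 and 860 CPM in cluster 4, against 3210 and 3185 in cluster 1, then 2534 and 2169 in cluster 5.

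The cells of cluster 4 were not uniform. Of 4314 genes with a mean of at least 0.2 UMIs per cell, 503 (11.7%) had a variance over 2 of Poisson residuals, which is 1 where counting noise alone acts, and the median was 1.14. In cells thinned to 2000 UMIs 155 genes passed the same value. The 15 genes with the highest residual variance were Gm42418, Ccl4, Cxcl2, Il1b, Fabp5, Lyz2, Hspa1a, Malat1, Fth1, Ifitm1, Tmsb4x, Cd74, Ccl7, Thbs1 and H2-Eb1. Gm42418, which overlaps ribosomal RNA, and Malat1, a nuclear RNA, are often read as signs of RNA quality. Il1b was found in 253 of the 276 cells, with a 10th percentile of 160 CPM and a 90th of 14732 CPM. Ifitm1 was found in 164 cells, with a median of 257 CPM and a 90th percentile of 3825 CPM. Thbs1 was found in 19 cells, and 1 of these held 25% of its UMIs. In principal components of library-centred values, the genes at the positive end of component 2 (2.01% of the variance) were C1qa, C1qb, C1qc, Sepp1, Pf4, F13a1, Mrc1 and Lyz2, and those at the negative end were ribosomal protein genes such as Rplp0 and Rps7. Component 1 (2.16%) ran from Nr4a3, Gm42418, Rel and Il1b to Ppia and Coro1a. Component 1 was not stable: its gene loadings correlated at 0.568 with the best match in thinned cells, and without library 1-1 or 1-2 they matched component 2 best, at 0.757 and 0.635. For component 2 the best matches were at 0.831 to 0.963, in thinned cells with component 1. The scores had Spearman correlations with UMIs per cell of 0.482 on component 1 and 0.389 on component 2, so depth moved with both and its part was not tested.

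C1q genes were concentrated in a minority of the cells. A C1q UMI (C1qa, C1qb or C1qc) was absent from 153 cells, 45 cells had 1 to 9, and 78 cells (28.3%) had 10 or more, which held 98.2% of the C1q UMIs of the cluster. The split is a range and not a type, with 9 cells at 5 to 9 UMIs and 7 cells at 10 to 14. Cells with 10 or more made up 10.5%, 31.0%, 26.7% and 29.1% of libraries 1-1, 1-2, 2-1 and 2-2, so library 1-1 had the smallest share. In these cells Lyz2, the macrophage lysozyme, was at 5525 and 4846 CPM, against 766 and 682 CPM in the cells without C1q. Folr2 and Lyve1, genes of resident macrophages, were at 318 and 329 CPM and at 103 and 283 CPM in the cells with 10 or more C1q UMIs, and neither had a UMI in the cells without C1q. Cluster 0, where these genes are highest among the clusters shown, had 855 and 953 CPM of Folr2 and 737 and 805 CPM of Lyve1.

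The same cells still carried the 4 genes of the label. Cd209a was at 405 and 439 CPM in cells with 10 or more C1q UMIs, against 968 and 1161 CPM in cells with none. Cd7 was at 31.6 and 34.6 CPM in the cells with 10 or more, against 146 and 160 in those with none. Klrd1 was at 281 and 300 CPM, against 566 and 555, and Flt3 was at 71.0 and 56.2 CPM, against 84.3 and 81.0. These genes were lower in both replicates of the cells with 10 or more. Plaur, at 255 and 184 CPM, against 165 and 296, was higher there in replicate 1 and lower in replicate 2. Clec10a, at 358 and 603 CPM, against 616 and 436, ran the opposite way, and Mgl2 was at 592 and 741 CPM, against 584 and 488. H2-Ab1 was at 12179 and 12309 CPM, against 13831 and 14510. Median depth was 9001.5 UMIs in the cells with 10 or more C1q UMIs, against 6421 in those with none, and 12062 in the 44 cells with 50 or more. No doublet caller was run here, and the sources used here do not say how the authors treated doublets. The part of depth, of doublets and of free RNA in this pattern was not tested.

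**Figure D3:**
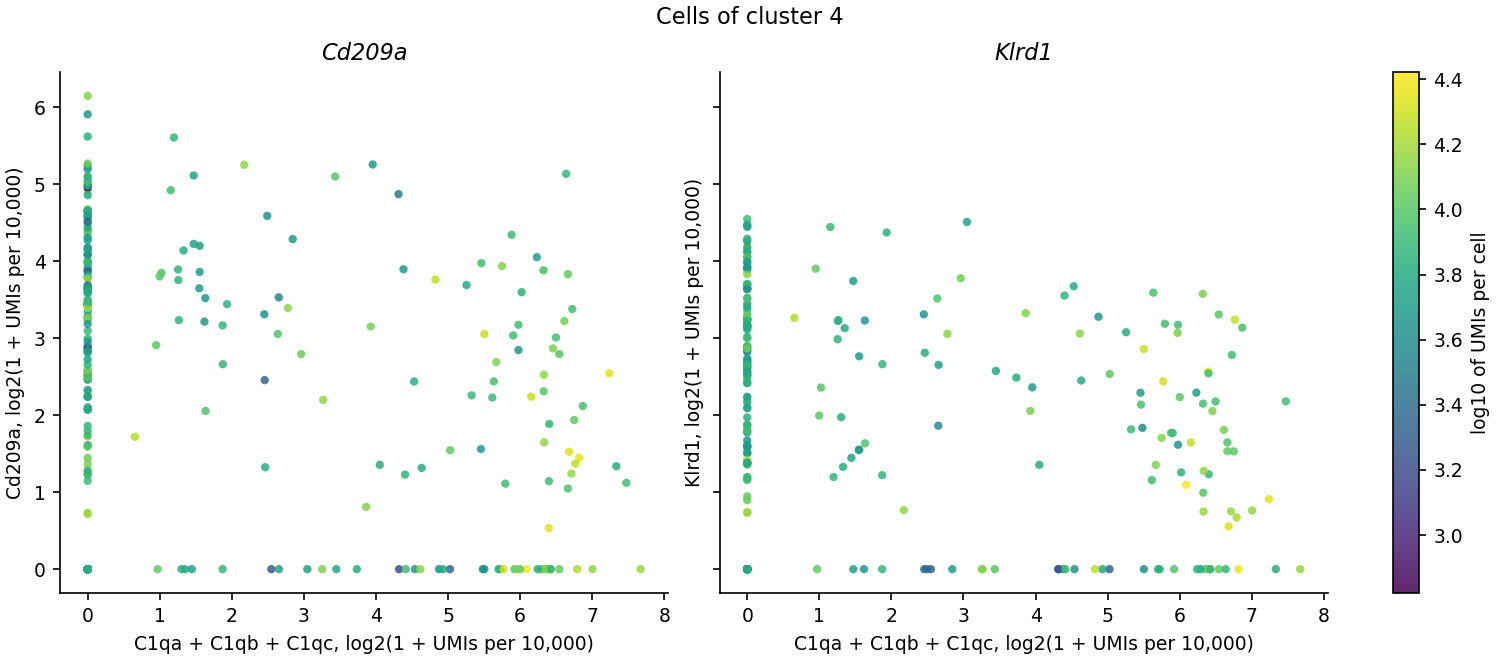
Cells of cluster 4 by their summed C1qa, C1qb and C1qc (x axis) and by Cd209a (left) or Klrd1 (right) on the y axis, all as log2(1 + UMIs per 10,000), coloured by the log10 of UMIs per cell. The 153 cells without C1q stand at the left edge with the widest range of Cd209a, and deep cells (yellow) lie mostly to the right.

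Without the 78 cells, a choice made after seeing the data, the comparison with all 4 background clusters changed most on its lower side. In all, 16 genes were then higher than in all 4, including all 10 of the full cluster, and 12 were lower, including Id2. Besides Id2 they included Fcrls, C1qa, C1qb, C1qc, Pf4, Cxcl2, Cd63, Ccl7, Ccl12 and Ms4a7. The C1q genes are low there because the cells were removed by their C1q UMIs while the background clusters kept theirs. Their place in this list is therefore no finding. Pf4, Lyz2 and Cxcl2 move with them over cells (Spearman correlations of 0.694, 0.682 and 0.564 with C1qa). Genes that move with C1q fall with the same removal, so a place of theirs in this list is no separate finding. For the other new genes the part of the removal was not tested. The log2 fold of Lyz2 was -0.061 over cluster 12 without these cells and 1.46 with them, which is no independent check.

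MHC class II was lower in cells with more Plac8, a gene of monocytes and immature dendritic cells. No Plac8 UMI was found in 126 cells, 1 to 9 in 86 cells and 10 or more in 64 cells. In that order H2-Ab1 was at 15585, 13457 and 7510 CPM in replicate 1 and at 15869, 13674 and 11243 CPM in replicate 2. Cd74 was at 27936, 23151 and 15166 CPM in replicate 1 and at 26118, 22906 and 20570 CPM in replicate 2. Both replicates showed the same order, with a smaller range in replicate 2. Ly6c2 was at 1.74, 47.6 and 157 CPM in replicate 1 and at 7.18, 22.4 and 75.6 CPM in replicate 2, and Ifitm1 was at 438, 1497 and 2729 CPM in replicate 1 and at 790, 1314 and 1809 CPM in replicate 2. Flt3 was at 67.8, 76.1 and 136 CPM in replicate 1 and at 62.2, 98.0 and 97.5 CPM in replicate 2. Cd209a followed no such order, at 944, 565 and 1106 CPM in replicate 1 and at 976, 619 and 819 CPM in replicate 2. The median depths were 7104.5, 6539.5 and 8135.5 UMIs. Across 270 cells thinned to 2000 UMIs, the summed monocyte genes and the summed MHC class II genes had a Spearman correlation of -0.396, with all points from 4 libraries and MHC class II taking a large part of each cell's UMIs.

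Ccr7 was found in 71 cells of cluster 4, of which 26 had 5 or more UMIs. In those 26 cells Ccr7 was at 1932 and 1798 CPM, below the 5253 and 5183 CPM of cluster 12. Fabp5, a fatty acid carrier high in cluster 12, was at 165, 630 and 2743 CPM in replicate 1 and at 186, 278 and 1632 CPM in replicate 2 in the cells with 0, 1 to 4 and 5 or more Ccr7 UMIs. Tbc1d4, a regulator of vesicle traffic, was at 124, 367 and 417 CPM in replicate 1 and at 90.2, 404 and 716 CPM in replicate 2 in the same order. Fscn1 stayed at 7.73 and 34.9 CPM in the 26 cells, against 1679 and 1189 CPM in cluster 12. Cd209a was at 386 and 393 CPM in the 26 cells, against 926 and 866 in the cells without Ccr7. Fabp5 and Tbc1d4 were among the genes with the highest Spearman correlations with Ccr7 in thinned cells of the cluster (0.312 and 0.34). They were shown here for that reason, so their rise with Ccr7 is no separate finding. For Fabp5, 14 cells held 72.3% of the UMIs. Fscn1 was found in few cells of the cluster.

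Cd209a and Klrd1 were found together in 163 of the 276 cells, Cd209a alone in 40, Klrd1 alone in 37 and neither in 36. Median depths were 7911, 5682.5, 6438 and 6878.5 UMIs in these sets, so the double-positive cells were the deepest. Cells with neither gene had Flt3 at 48.4 CPM and Lyz2 at 3897 CPM, against 87.9 and 1999 CPM in the cells with both. Cells with Cd209a alone had 52.5 and 3596 CPM, and cells with Klrd1 alone had 120 and 2509 CPM. Flt3 was thus higher and Lyz2 lower in both sets with Klrd1, in levels pooled over the replicates. Across 270 thinned cells, Cd209a had its highest Spearman correlations with S100a10 (0.267), Clec10a (0.262), Gm2a (0.259), H2-DMa (0.238) and Plbd1 (0.207), and among its lowest were those with Grasp (-0.267), C1qb (-0.226), C1qa (-0.225) and C1qc (-0.212). These values are weak and come from sparse counts. C1qa, by contrast, had correlations of 0.842 with C1qb, 0.709 with Sepp1 and 0.694 with Pf4.

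**Figure D4:**
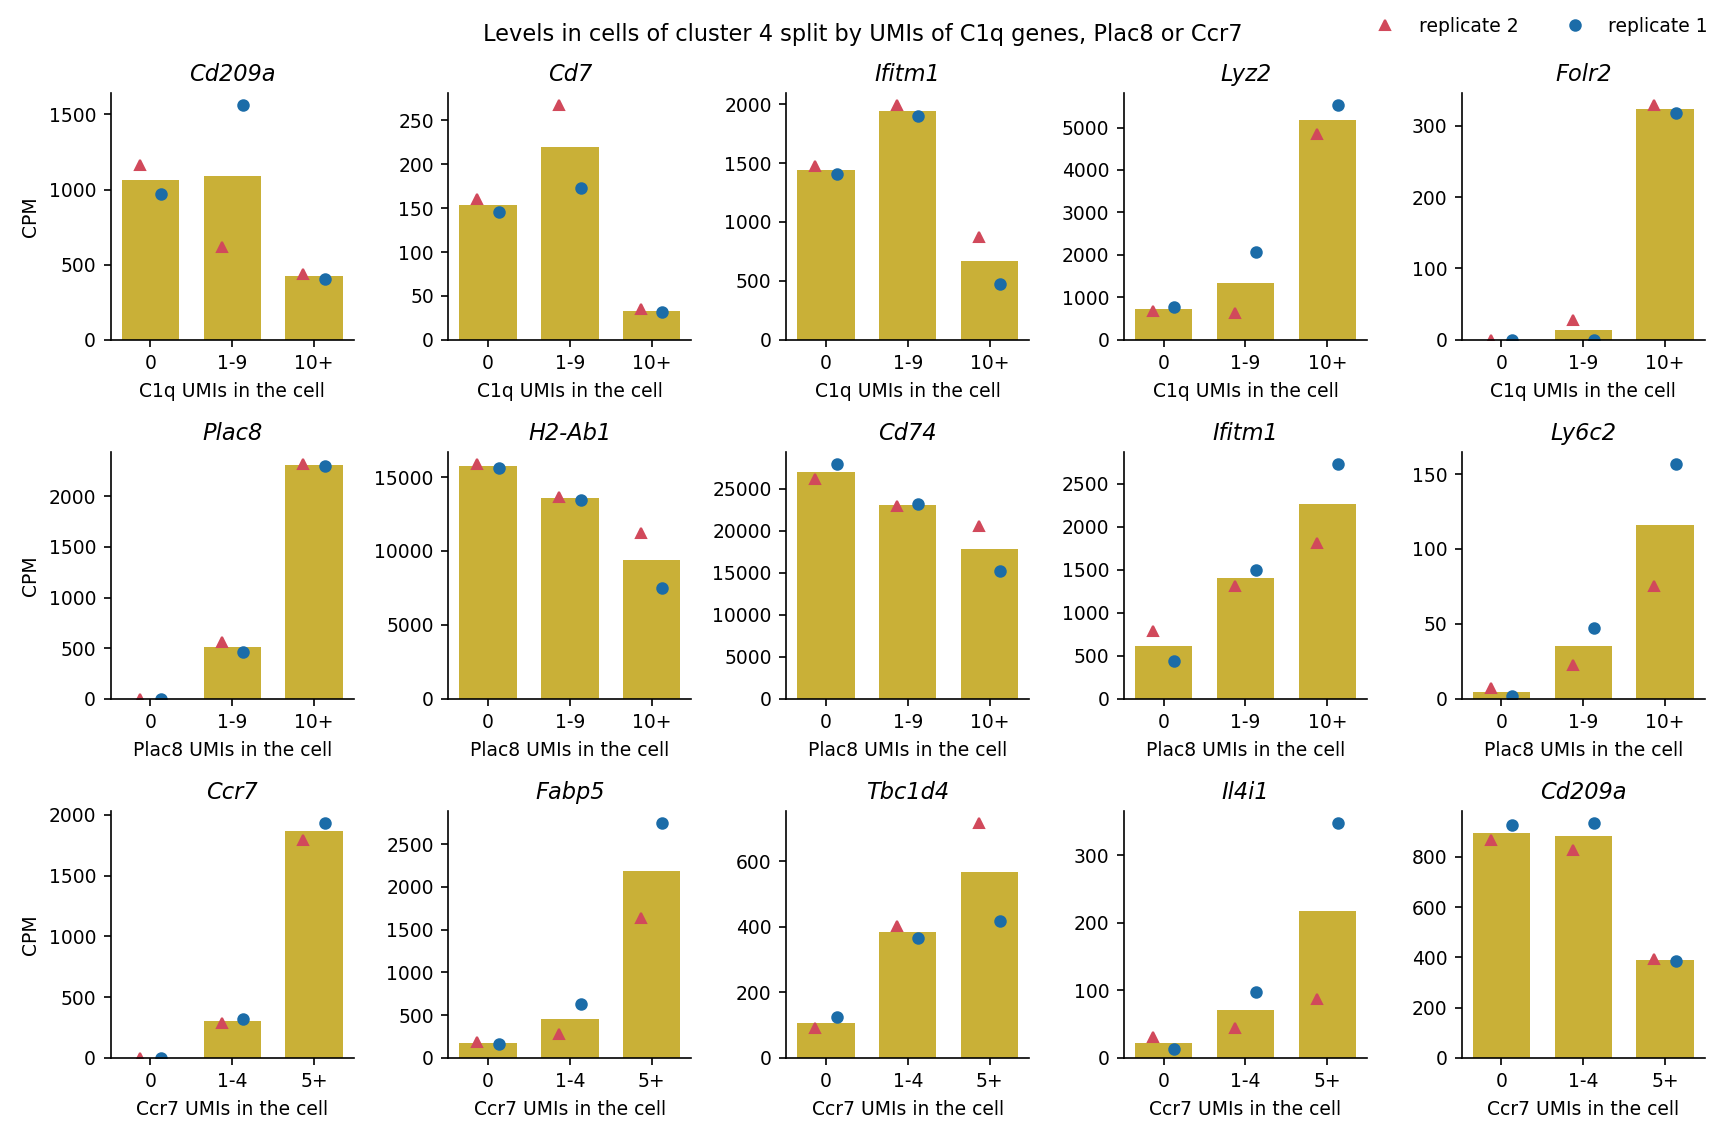
Levels (CPM, y axis) in cells of cluster 4 split by UMIs of C1q genes (top), Plac8 (middle) or Ccr7 (bottom) in the cell (x axis); bars are means of 2 replicates, triangles replicate 2 and circles replicate 1. Lyz2 and Folr2 are highest and Cd209a and Cd7 lowest in cells with 10 or more C1q UMIs, and H2-Ab1 and Cd74 are lowest in cells with 10 or more Plac8 UMIs.

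Between the biological replicates, within cluster 4, no gene passed an adjusted p of 0.05 in edgeR's quasi-likelihood test of the 4 libraries (0 of 5626 genes higher and 0 lower in replicate 2, 0% each, and 246 genes at an unadjusted p under 0.05). DESeq2 likewise called 0 genes, with 36 at an unadjusted p under 0.05. With 2 libraries a replicate the fit rests on 2 residual degrees of freedom. Without library 1-2 it called 58 genes higher and 33 lower, on the assumption that the lone library 1-1 of 19 cells varies like the other replicate, and without library 2-2 it called none. Leaving out library 1-1 gave 9 genes higher and 8 lower, and leaving out library 2-1 gave 4 and 6. Klf2, a transcription factor of quiescence and trafficking, had the smallest p. It was at 576 and 517 CPM in the libraries of replicate 2, against 255 and 296 CPM in those of replicate 1 (log2 fold 1.01 ± 0.19, SE, adjusted p = 0.201, edgeR). The next were Lpl, Gm42418 and Ccl24. Gm42418 was at 5921 and 5394 CPM in replicate 2, against 9425 and 8531 CPM in replicate 1 (log2 fold -0.62 ± 0.12, adjusted p = 0.201, edgeR). Its direction was shared by cluster 1, at 9739 and 9493 CPM in replicate 2, against 17144 and 11763 CPM in replicate 1. In cluster 5 it was at 9126.5 and 7183 CPM in replicate 2, against 10963 and 9822 CPM in replicate 1. Irf8 was at 119 and 85.9 CPM in replicate 2, against 282 and 184 CPM in replicate 1 (log2 fold -1.08 ± 0.25, adjusted p = 0.437, edgeR).

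The 12 genes induced by tissue dissociation summed to 23408 and 20356 CPM in libraries 2-1 and 2-2, against 15711 and 15682 CPM in libraries 1-1 and 1-2. For 10 of the 12, both libraries of replicate 2 were above both of replicate 1, as were 14.2% of the 5626 genes tested, and for none were both below, as were 19.6%. The median log2 fold was 0.59 over the list, against 0.01 over all genes tested, and 11 of the 12 had an unadjusted p under 0.05, though the smallest adjusted p was 0.437 (edgeR). Jun was at 2554 and 1533 CPM in replicate 2, against 1068 and 1213 CPM in replicate 1 (log2 fold 0.88 ± 0.21, adjusted p = 0.437, edgeR). Hspa1a, an inducible heat shock protein, was at 2428 and 2083 CPM in replicate 2, against 1721 and 1269 CPM in replicate 1. Fosb did not follow, at 770 and 1052 CPM in replicate 2, against 1042 and 961 CPM in replicate 1. The same sum was 23114 and 21703 CPM in replicate 2 of cluster 1, against 20627 and 19968 CPM in replicate 1, and 19414 and 21540 CPM in replicate 2 of cluster 5, against 12004 and 14459 CPM in replicate 1. It was 23976 CPM in replicate 2 of cluster 11, against 16500 in replicate 1, but 8219 CPM in replicate 2 of cluster 12, against 9390 in replicate 1. The direction was thus shared by clusters 1, 5 and 11, and cluster 12 ran the other way. The sources used here do not say how the replicates were handled. The part of handling in the differences between replicates, those of these 12 genes included, was not tested.

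**Figure D5:**
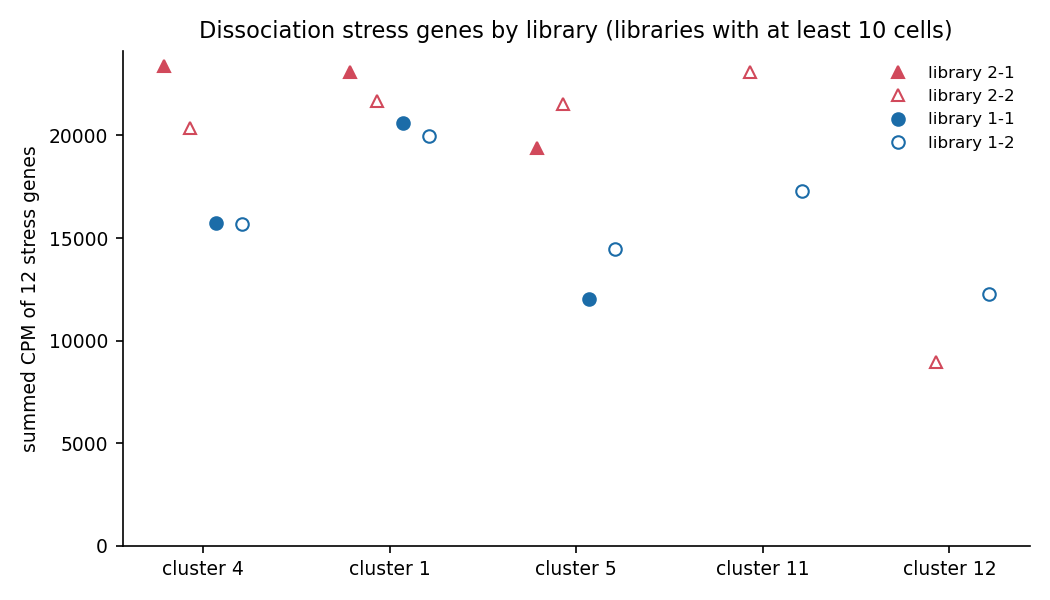
Summed level of 12 dissociation stress genes (CPM, y axis) by library in clusters 4, 1, 5, 11 and 12 (x axis), for libraries with at least 10 cells; triangles are replicate 2 and circles replicate 1. In cluster 4 both libraries of replicate 2 (23408 and 20356 CPM) lie above both of replicate 1 (15711 and 15682 CPM).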

How the data were processed

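Droplet sequencing of leukocytes sorted from aortas gave 3002 myeloid cells in 4 libraries of 1698585 to 5954716 UMIs. The authors deposited raw UMI counts per gene and cell, mapped to mm10 with Cell Ranger 3.0.2 per the labels' protocols, and the submitters' processing notes name Seurat 3.1.1. The deposited natural log values equal ln(1 + 10000 × count / cell total) within 1e-12 and were checked only. The deposited table of the authors also gives the percent of mitochondrial UMIs, at most 9.99, and a cluster number per cell. The smallest cell had 502 UMIs and 201 genes. Cell filters, clustering settings and doublet handling are not stated in the sources used here, and no doublet caller was run.

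Counts were summed per cluster and biological replicate and scaled to CPM, and log2(CPM + 10) folds were taken within a replicate. Replicate 2 was set against replicate 1 in cluster 4 with edgeR 4.0.16 (R 4.3.3), using filterByExpr, TMM scaling and the two-sided quasi-likelihood test with Benjamini-Hochberg adjustment, and with DESeq2 1.42.0 as an alternative. Python 3.11.15, scipy 1.17.1 and pandas 2.3.3 did the rest. Variation used Pearson residuals under a Poisson model with each cell's total as offset, centred within library, and correlations used cells thinned to 2000 UMIs. Exact binomial intervals are at 95% and, with the floor of 3 counts, cover counting error only. The count models and residuals were tested on simulated data. Alternatives were TMM scaling, another pseudocount (1 CPM), other minimum levels (20 CPM or none), means over cells, thinned cells, leaving out the 5% deepest cells, libraries as samples, and leaving out each library.

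The members and gene lists were chosen with earlier results of these data known. Named genes were the 6 highest and 6 lowest per comparison by the smaller replicate fold, those above or below all 4 clusters, the label's markers, up to 5 members of each list by level, the 15 most variable genes, 8 at each end of 2 components, and 5 at each end of the correlations with Cd209a. Other genes named, including the other list members, those of the splits by C1q, Plac8 and Ccr7, and those with the smallest p between replicates, were chosen after their values were seen. Reads of near-identical genes (Clec10a and Mgl2, the Cd209 and Clec4a families, Hspa1a and Hspa1b) may be divided uncertainly. A gene that the rule for named genes would include is not reported here.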

Additional observations from a re-analysis of the deposited data

Results flagged for a closer look

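In 5 of 42 levels examined in cluster 4, 1 library lay far from the other 3 by Dixon's criterion, which chance meets in about 1 in 20 groups. Library 1-1 was the highest for Ddr1, at 120.71 CPM, against 47.8, 44.9 and 43.0 CPM in libraries 1-2, 2-1 and 2-2. It was also the highest for Ctnnd2, at 71.534 CPM, against 48.9, 46.7 and 50.9 CPM. Library 1-2 was the highest for Cyp4f16, at 86.211 CPM, against 58.1, 55.7 and 57.3 CPM in libraries 1-1, 2-1 and 2-2. The summed B cell genes were at 17.475 CPM in library 1-2, against 4.47, 5.39 and 6.37 CPM in the same 3 libraries. The summed innate sensors were lowest in library 1-1, at 992.54 CPM, against 1290, 1266 and 1286 CPM in libraries 1-2, 2-1 and 2-2. Library 1-1 held 19 cells of the cluster.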

How the results depend on the processing

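With no minimum level, 215 genes were higher in cluster 4 than in cluster 1, 128 than in cluster 5, 256 than in cluster 11, 900 than in cluster 12 and 16 than in all 4 clusters, and with a minimum of 20 CPM 689 were higher than in cluster 12. In cells thinned to 2000 UMIs, 245 were higher and 161 lower than in cluster 11, and 155 genes had a residual variance over 2. With libraries as samples, 51 were higher and 112 lower than in cluster 5, and 0 were lower than in all 4. By means over cells, 17 were higher than in all 4. Without the 78 cells with 10 or more C1q UMIs, 284 were lower than in cluster 1, 260 than in cluster 5, 152 than in cluster 11 and 12 than in all 4, where 16 were higher. The log2 folds over cluster 12 of C1qa, C1qb, C1qc, F13a1 and Lyz2 then turned to -3.08, -3.10, -3.35, -0.32 and -0.061. For the C1q genes this follows from removing cells by C1q in cluster 4 alone, and Lyz2 moves with C1qa over cells. Leaving out 1 library gave 9 to 12 genes higher and 0 to 1 lower than in all 4 clusters, and Id2 was not called without library 1-1 or 1-2. Between replicates the counts ran from 0 to 58 higher and from 0 to 33 lower, and without a filter 8 were higher and 11 lower. Where no removed cells, libraries or genes account for a change, its cause was not tested. TMM scaling moved the median log2 fold of the genes that reached 50 CPM by 0.15 over cluster 11 and by 0.14 over cluster 12. Without library 1-2, with 3 cells of cluster 11 left in replicate 1, it moved by 1.06 over cluster 11. Of 239 calls of named genes, between 0 (pseudocount of 1 CPM, which can lose no call) and 36 (libraries as samples) were lost. No paired analysis was possible because the replicates belong to 1 group, and the cluster folds, which are taken within a replicate, come from no test. Precision is limited by 2 biological replicates, by the 47 and 44 cells of clusters 11 and 12, and by the 19 cells of library 1-1.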
